A study of Mus musculus with 18 samples.

Results

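The genes described here are the transcription factor *Myc*, its relative *Mycn*, and genes for RNA polymerase I and for the nucleolar factors that cut, modify and fold ribosomal RNA. The members were chosen by name, as a list of known ribosome biogenesis genes, with earlier results of these data known. They are 53 of the 51912 genes counted in the series. All 53 passed the filter for testing, at least 10 read pairs over the 18 libraries, which 24495 genes passed.

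Ribosomes are built in the nucleolus, where RNA polymerase I transcribes the large precursor of the ribosomal RNAs. Small nucleolar ribonucleoprotein particles (snoRNPs) guide methylation and pseudouridylation of this precursor, and large assemblies of processing factors then shape the small and the large subunit. MYC binds E-box sequences in DNA and is known for driving many of these genes in growing and dividing cells, in glial precursors as in other tissues.

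Astrocytes were cultured from the cortex of mice at postnatal day 0 that carry the transgene Aldh1l1-EGFP/Rpl10a, in which the promoter of the astrocyte gene *Aldh1l1* drives an EGFP-tagged ribosomal protein. Pulling down the tag (translating ribosome affinity purification) gave the IP fraction, RNA bound to tagged ribosomes, while the input fraction was RNA of the cleared lysate of the dish. The 4 groups were IP control (n = 6), IP ethanol (n = 6), input control (n = 3) and input ethanol (n = 3). The input libraries came from the same dishes as IP replicates 4 to 6. All dishes carried the transgene, were grown for 14 days, replated for 6 days and kept without serum for 24 h. Ethanol dishes then received 50 mM ethanol for 24 h in serum-free medium, and control dishes (0 mM) received serum-free medium alone. Cortices of both sexes were combined, so that the replicates are dishes. The labels do not say whether the dishes came from separate cultures, and p-values measure the spread between dishes. Each library held between 74239854 and 132810705 counted read pairs.

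Levels are given as CPM, the read pairs of a gene scaled for library size with TMM. Every adjusted p is from edgeR's quasi-likelihood test with Benjamini-Hochberg adjustment over the 24495 genes, and a gene was called higher or lower at an adjusted p under 0.05. Errors of log2 fold changes are SE.

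The labelled cell type was checked against 12 astrocyte markers. *Aldh1l1* averaged 383 CPM in IP control and 189 CPM in input control libraries, and *Gfap*, *Aqp4*, *Slc1a3* and *Glul* averaged 331, 261, 350.4 and 649.9 CPM in IP control. *Gjb6* was near 0, at 0.0315 CPM in IP control, and *S100b* averaged 2.64 CPM. Other lists were not empty in IP control. The oligodendrocyte lineage list summed to a median of 409 CPM (most abundant *Olig1*), the neuronal list to 226 CPM (most abundant *Stmn2*) and the vascular, mural and meningeal list to 1807 CPM (most abundant *Acta2*), against 2502 CPM for the astrocyte list. Single markers of these cells were near 0 or low, with *Rbfox3* (neurons) at 0.158, *Mog* (oligodendrocytes) at 0.0431, *Cdh5* (endothelium) at 0.0740 and *Cx3cr1* (microglia) at 0.608 CPM.

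With levels divided by exon length, the members spanned a wide range in IP control libraries. This length merges all annotated exons of a gene and can exceed that of its mRNA. The order of genes per kb is therefore uncertain, and by CPM alone *Ncl* was the most abundant member over all libraries. *Npm1*, for the nucleolar chaperone nucleophosmin, had the highest level at 137 CPM per kb. *Rrp1*, for a large subunit factor, followed with 83.7 CPM per kb, and *Ncl*, for the rRNA-binding protein nucleolin, had 53.002 CPM per kb. *Ubtf*, for the factor that marks active ribosomal DNA, had 31.2 CPM per kb and was the highest of the RNA polymerase I group, in which *Polr1b*, for the second-largest subunit, was lowest with 2.92 CPM per kb. *Nop10* led the box H/ACA proteins with 30.2 CPM per kb and *Dkc1*, for the pseudouridine synthase dyskerin, was lowest with 5.68 CPM per kb. *Fbl*, for the methyltransferase fibrillarin, had 9.93 and *Nop58* 5.17 CPM per kb among the box C/D proteins. *Nop14* (21.8 CPM per kb) and *Heatr1* (2.80 CPM per kb) bounded the small subunit factors, and *Gnl3* was lowest of the nucleolar regulators with 6.91 CPM per kb. Among the DEAD-box helicases, *Ddx21* had 19.65 and *Ddx10* 9.33 CPM per kb. *Myc* had 10.04 CPM per kb and *Mycn* 0.288 CPM per kb. *Wdr74* held 12 read pairs over all 18 libraries, with at most 3 in any of them. It was counted as tested, and no fold change is given for it.

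The first question was whether ethanol changed these mRNAs on tagged ribosomes and in the cleared lysate. In the IP fraction 30 of the 53 members were lower with ethanol and 0 were higher, whereas 9.48% of all tested genes were called lower and 11.9% higher. In input 27 members were lower, against 7.78% of all tested genes, and 1 was higher, against 7.21%. The median log2 fold change of the members was -0.12 in IP and -0.11 in input. Over all tested genes the medians were 0.0054 in IP and -0.00092 in input. Calls are easier to make in well-expressed genes. Of 9734 genes averaging 10 CPM or more, 17.9% were lower in IP and 16.2% in input, and 23.7% and 15.4% were higher. Of the 50 members in that range, 60% were lower in IP and 52% in input. In bulk samples such as these, fewer cells of a type and less RNA per cell cannot be told apart.

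The falls were small and spread over many genes. The called members in IP had folds between 0.826 (*Nop58*) and 0.951 (*Mybbp1a*, called in 8 of 12 fits that each left out 1 library), and with a required fold of 1.2 the test called 0 members in either fraction. In 18 members every IP ethanol library was below every IP control library, which held for 4.87% of all tested genes. The same held for 36 members in input, with 3 against 3 libraries, and for 13.1% of all tested genes. The summed level of the 53 members ran from 3379 to 3445 CPM (median 3409) in IP control and from 3131 to 3234 CPM (median 3151) in IP ethanol libraries. In input the sum was 3110, 3049 and 3087 CPM in control and 2894, 2872 and 2891 CPM in ethanol replicates 4 to 6. The sums of the ethanol libraries were all below those of the control libraries, in IP as in input.

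**Figure D1:**
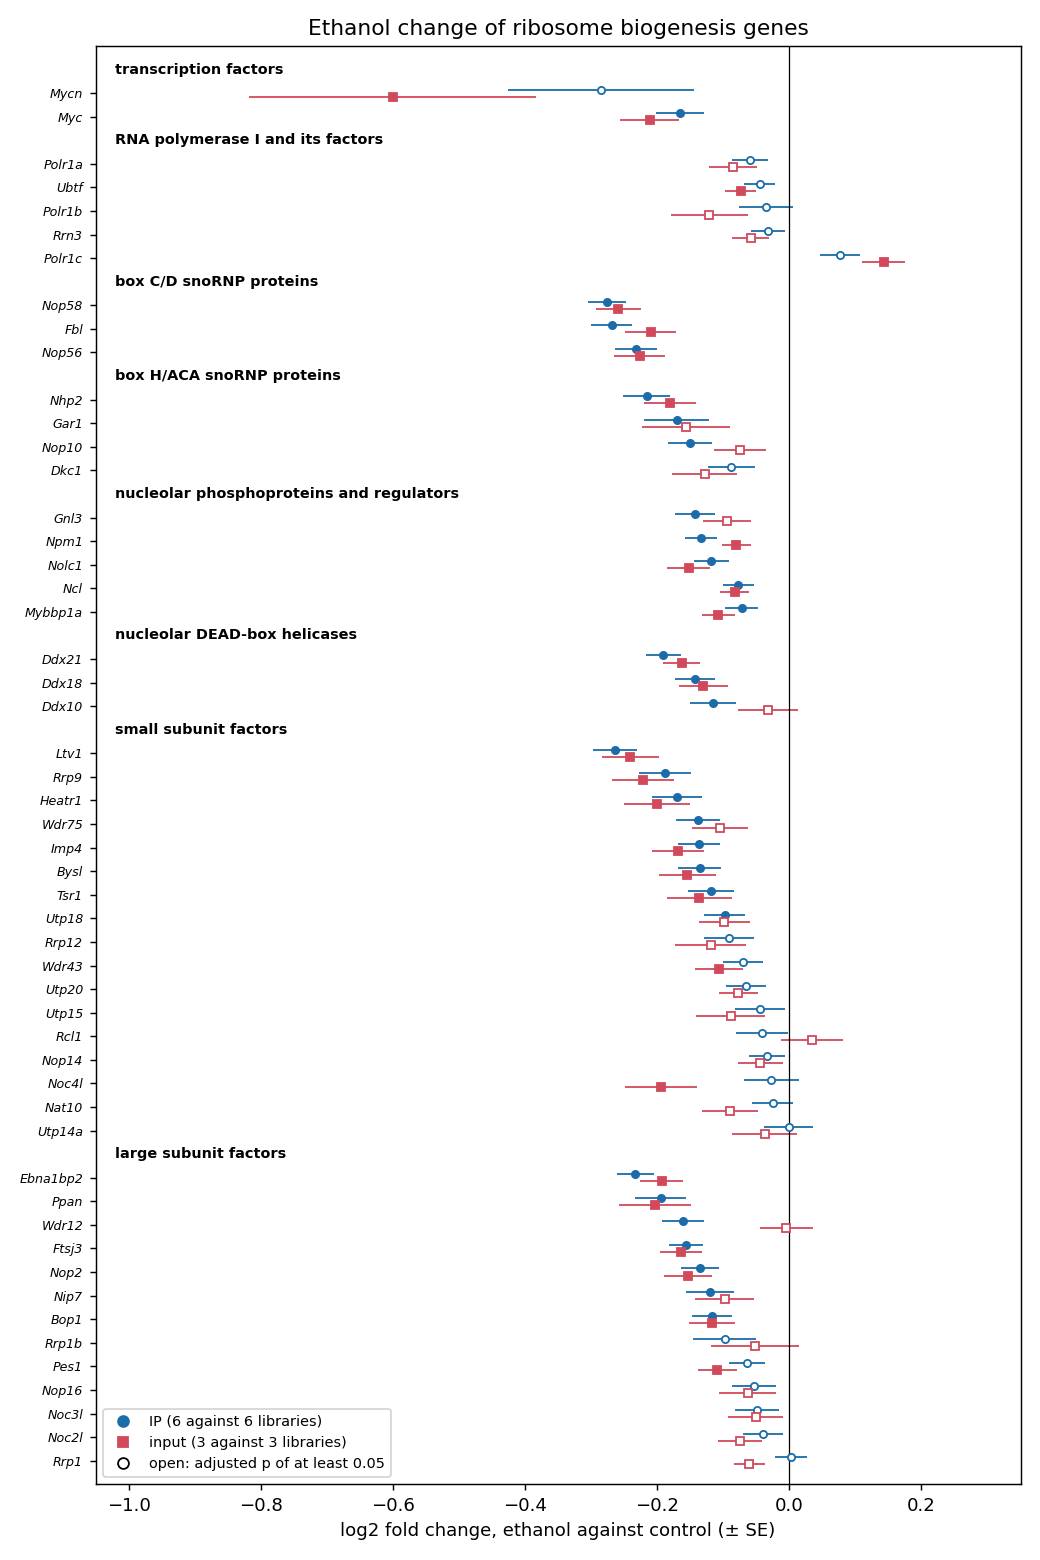
Log2 fold change of ethanol against control (x axis, ± SE) for each member by role, in IP (blue circles, 6 against 6 libraries) and input (red squares, 3 against 3 libraries). *Wdr74*, near 0 in all libraries, is left out. Filled symbols mark an adjusted p under 0.05, and nearly all symbols lie left of 0, with *Polr1c* on the right in both fractions.

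*Myc* (ENSMUSG00000022346, chr15:61985391-61990374, GRCm38) encodes the transcription factor itself. Its level ran from 25.8 to 29.6 CPM (median 26.7) in IP control and from 22.9 to 25.7 CPM (median 24.4) in IP ethanol libraries. In input, control replicates 4 to 6 had 26.6, 27.5 and 26.0 CPM and ethanol replicates 4 to 6 had 23.8, 22.7 and 22.9 CPM. All ethanol libraries were below all control libraries in both fractions, although in IP the highest ethanol and the lowest control library nearly met. The log2 fold change was -0.17 ± 0.0366 (adjusted p = 0.000376) in IP and -0.21 ± 0.0444 (adjusted p = 4.64e-05) in input.

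*Mycn*, which encodes the relative of MYC best known from neural precursors, was scarce. It had between 0.857 and 1.16 CPM (median 0.921) in IP control and between 0.639 and 1.02 CPM (median 0.724) in IP ethanol libraries, and these groups overlapped. The input values were 1.004, 1.09 and 0.951 CPM in control and 0.724, 0.857 and 0.417 CPM in ethanol replicates 4 to 6. In input it was called lower, with a log2 fold change of -0.60 ± 0.217 (adjusted p = 0.0402), and in IP it was not, with -0.29 ± 0.141 (adjusted p = 0.158). The input call was kept in 1 of the 6 fits that each left out a library, namely without input ethanol replicate 5. Over these 6 fits the log2 fold change of *Mycn* in input ran from -0.82 to -0.37. DESeq2, another filter and no filter did not call it either. In IP it was called without IP ethanol replicate 4.

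Of the 5 genes for RNA polymerase I and its initiation factors, edgeR called 0 in IP, where 2 had an unadjusted p under 0.05 and 4 were below 0. Their median log2 fold change was -0.04. *Polr1a*, for the largest subunit, had a log2 fold change of -0.06 ± 0.0274 (adjusted p = 0.121) in IP, and *Rrn3*, for the factor that recruits the polymerase to ribosomal DNA, had -0.03 ± 0.0255 (adjusted p = 0.437). *Ubtf* was called lower in input, with -0.07 ± 0.0234 (adjusted p = 0.0147), but not when input control replicate 6, input ethanol replicate 5 or input ethanol replicate 6 was left out. DESeq2 called *Polr1a* and *Ubtf* lower in IP.

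*Polr1c* (ENSMUSG00000067148, chr17:46243920-46248054, GRCm38), for a subunit shared by RNA polymerases I and III, was the 1 member that rose. It had 49.8, 48.3 and 47.5 CPM in input control and 55.8, 52.7 and 52.6 CPM in input ethanol replicates 4 to 6. In IP its level ran from 34.1 to 37.5 CPM (median 36.7) in control and from 36.9 to 39.3 CPM (median 38.1) in ethanol libraries. The input groups stood apart and the IP groups overlapped. The log2 fold change was 0.14 ± 0.0329 (adjusted p = 0.000271) in input and 0.08 ± 0.0308 (adjusted p = 0.0666) in IP. Without IP ethanol replicate 5, or with trends of GC content and length removed, it was called higher in IP as well, with log2 fold changes of 0.08 and 0.12.

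Box C/D snoRNPs carry out 2′-O-methylation of ribosomal RNA. Their proteins among the members fell together: 3 of 3 were lower in each fraction, with median log2 fold changes of -0.27 in IP and -0.23 in input. *Snu13* is not a member and was counted with the snoRNP assembly factors. *Nop58* (ENSMUSG00000026020, chr1:59684971-59719044, GRCm38), a core scaffold of these particles, ran from 54.5 to 56.7 CPM (median 55.5) in IP control and from 43.9 to 47.1 CPM (median 45.8) in IP ethanol libraries. Its input values were 50.8, 50.4 and 48.9 CPM in control and 43.3, 41.8 and 40.6 CPM in ethanol replicates 4 to 6. The groups were well apart in both fractions. The log2 fold change was -0.28 ± 0.0281 (adjusted p = 1.01e-11) in IP and -0.26 ± 0.0344 (adjusted p = 5.98e-12) in input.

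*Fbl*, the methyltransferase of the same particle, ran from 39.7 to 43.3 CPM (median 42.2) in IP control and from 33.2 to 36.2 CPM (median 34.5) in IP ethanol libraries. In input it had 38.2, 37.1 and 36.8 CPM in control and 32.3, 32.4 and 32.6 CPM in ethanol replicates 4 to 6. No ethanol library reached a control library. *Fbl* had a log2 fold change of -0.27 ± 0.031 (adjusted p = 4.53e-10) in IP and -0.21 ± 0.0385 (adjusted p = 1.91e-06) in input. *Nop56*, the partner of NOP58, had -0.23 ± 0.0318 in IP and -0.23 ± 0.0388 in input. SnoRNA genes lie within annotated exons of *Nop56*, *Nop58*, *Ncl*, *Gnl3* and *Ppan* on the same strand. Read pairs in these shared stretches were left out by the authors' counting, with stranded counts as well.

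Of the 4 box H/ACA proteins, which guide pseudouridylation and also belong to telomerase, 3 were lower in IP (*Nhp2*, *Nop10* and *Gar1*) and 1 in input (*Nhp2*). *Nhp2* ran from 27.9 to 32.2 CPM (median 30.8) in IP control and from 24.7 to 27.5 CPM (median 26.2) in IP ethanol libraries. Input control replicates 4 to 6 had 34.3, 33.3 and 35.7 CPM, and input ethanol replicates had 30.1, 30.3 and 31.1 CPM. The groups did not overlap in either fraction, and the log2 fold change was -0.22 ± 0.0358 (adjusted p = 3.46e-06) in IP and -0.18 ± 0.0396 (adjusted p = 0.000108) in input. The catalytic member *Dkc1* was not called, with -0.09 ± 0.0356 (adjusted p = 0.0703) in IP and -0.13 ± 0.0491 (adjusted p = 0.0587) in input, and was not a stable case. It was called lower in IP by DESeq2, with RLE scaling, with another filter, with stranded counts, and without IP control replicate 6 or IP ethanol replicate 3. In input it was called with the replicate block, with another filter, with trends of GC content and length removed, and without input control replicate 6.

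Of the nucleolar phosphoproteins and regulators, 5 of 5 were lower in IP and 4 in input. *Npm1* ran from 352 to 377 CPM (median 365) in IP control and from 314 to 353 CPM (median 330) in IP ethanol libraries, and the highest ethanol library lay just above the lowest control library. Its log2 fold change was -0.13 ± 0.0241 (adjusted p = 1.76e-05) in IP and -0.08 ± 0.0225 (adjusted p = 0.00445) in input. *Ncl* had -0.08 ± 0.0237 in IP and -0.08 ± 0.0224 in input. In input both were among the smallest changes called, and these calls were lost without input control replicate 4 (*Ncl* and *Npm1*) or input ethanol replicate 5 (*Npm1*).

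*Gnl3*, for the nucleolar GTPase nucleostemin, changed most within this group in IP. It ran from 41.6 to 43.1 CPM (median 42.0) in IP control and from 36.4 to 40.9 CPM (median 37.6) in IP ethanol libraries, with no overlap. The log2 fold change was -0.14 ± 0.0305 (adjusted p = 0.000255) in IP and -0.09 ± 0.0366 (adjusted p = 0.0649) in input, where it was called without input control replicate 5 or input ethanol replicate 6.

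The nucleolar DEAD-box helicases were lower in 3 of 3 cases in IP and in 2 of 3 in input. *Ddx21*, which unwinds structured RNA at ribosomal DNA, ran from 101 to 104 CPM in IP control (median 101) and from 83.2 to 92.7 CPM (median 88.6) in IP ethanol libraries. Input control replicates 4 to 6 had 81.9, 78.1 and 78.7 CPM, and input ethanol replicates had 71.7, 69.4 and 72.8 CPM. The groups were apart in both fractions, with log2 fold changes of -0.19 ± 0.0262 (adjusted p = 5.03e-08) in IP and -0.16 ± 0.0282 (adjusted p = 3.6e-07) in input. *Ddx10* was called in IP alone, with -0.12 ± 0.0343 (adjusted p = 0.00937) against -0.03 ± 0.0454 (adjusted p = 0.744) in input.

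Of the 17 small subunit factors, 8 were lower in IP and 8 in input. *Ltv1* (ENSMUSG00000019814, chr10:13178140-13193168, GRCm38), for a late factor that leaves the small subunit in the cytoplasm, changed most in IP. Its level ran from 33.2 to 34.4 CPM (median 34.0) in IP control and from 27.0 to 31.0 CPM (median 27.6) in IP ethanol libraries. In input it had 29.0, 28.4 and 27.9 CPM in control and 23.9, 24.1 and 24.4 CPM in ethanol replicates 4 to 6. The groups were apart in both fractions, with IP ethanol replicate 1 above the other ethanol libraries. The log2 fold change was -0.26 ± 0.0333 (adjusted p = 6.18e-09) in IP and -0.24 ± 0.0434 (adjusted p = 1.07e-06) in input.

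Other small subunit factors varied in their response. *Nop14*, an early factor, had a log2 fold change of -0.03 ± 0.027 (adjusted p = 0.436) in IP, and *Heatr1*, another early factor, had -0.17 ± 0.0381 (adjusted p = 0.000462). *Rrp12*, an export factor, had -0.09 ± 0.038 (adjusted p = 0.0787) and was called lower in IP by DESeq2, with RLE scaling, with another filter, in IP replicates 1 to 3 alone, with trends of GC content and length removed, and without IP control replicate 4, IP control replicate 5 or IP ethanol replicate 4. *Noc4l* was called in input, with -0.19 ± 0.0543 (adjusted p = 0.00411), and had -0.03 ± 0.0412 (adjusted p = 0.731) in IP. Its input call was lost without input ethanol replicate 4. *Tsr1* shares 32.3% of its exon length with *Srr* on the opposite strand, so that read pairs there were set aside by the authors' counting. With counts of its own strand its log2 fold change in IP was -0.16, against -0.12 with the unstranded counts. The input call of *Tsr1* (adjusted p = 0.0400) was kept in 1 of 6 fits that each left out a library. That of *Wdr43* (adjusted p = 0.0263) was kept in 2 of 6.

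Of the 14 large subunit factors, 7 were lower in IP and 6 in input. *Ebna1bp2*, for a factor that binds the early large subunit precursor, changed most in IP. It ran from 63.6 to 69.4 CPM (median 65.7) in IP control and from 53.03 to 57.4 CPM (median 56.3) in IP ethanol libraries. Input control replicates 4 to 6 had 55.8, 54.4 and 54.9 CPM, and input ethanol replicates had 48.1, 49.1 and 47.5 CPM. Control and ethanol libraries were widely apart in both fractions. The log2 fold change was -0.23 ± 0.0278 (adjusted p = 1.3e-09) in IP and -0.19 ± 0.0328 (adjusted p = 1.74e-07) in input. *Rrp1*, the most abundant of this group per kb, had 0.00 ± 0.0243 (adjusted p = 0.964) in IP and -0.06 ± 0.0232 (adjusted p = 0.0567) in input, where it was called without input ethanol replicate 6.

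PES1, BOP1 and WDR12 form the PeBoW complex on the large subunit precursor. *Bop1* fell in both fractions, with a log2 fold change of -0.12 in each, and its input call was lost without input control replicate 5, input control replicate 6 or input ethanol replicate 6. *Pes1* was called in input (-0.11) and had -0.06 ± 0.0274 (adjusted p = 0.0883) in IP, where it was called in 4 of 12 fits that each left out 1 library. *Wdr12* ran from 33.8 to 36.2 CPM (median 35.2) in IP control and from 30.2 to 32.6 CPM (median 31.0) in IP ethanol libraries, without overlap, and its log2 fold change was -0.16 ± 0.0316 (adjusted p = 6.84e-05). In input, *Wdr12* had 32.8, 31.5 and 31.1 CPM in control and 31.4, 31.7 and 32.4 CPM in ethanol replicates 4 to 6. There the groups overlapped, with a log2 fold change of -0.00427 ± 0.0399.

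**Figure D2:**
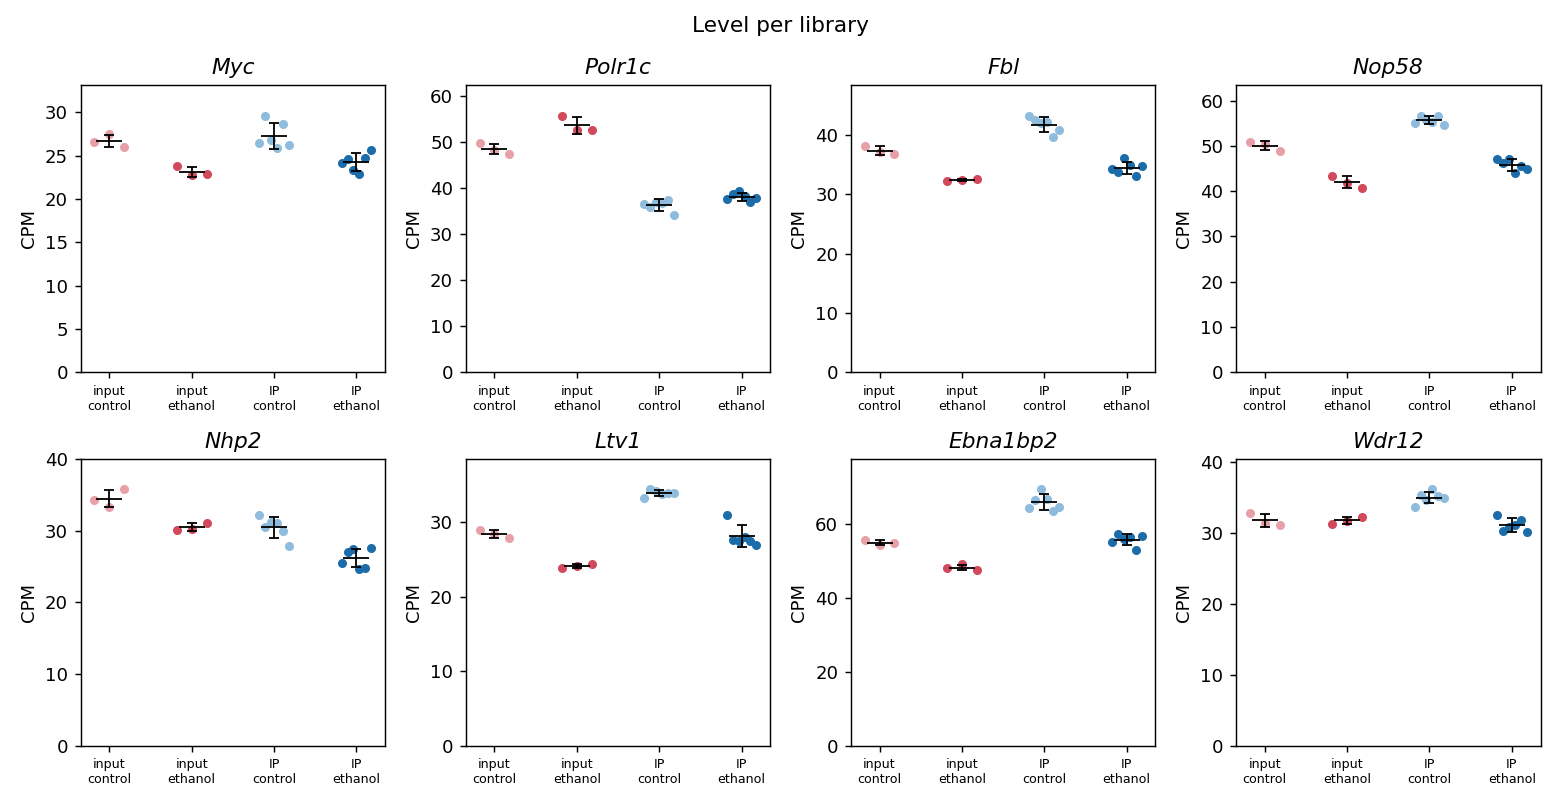
Level in CPM (y axis, from 0) of 8 members in each library of the 4 groups, with the mean and SD as bars. *Myc*, *Fbl*, *Nop58*, *Nhp2*, *Ltv1* and *Ebna1bp2* are lower with ethanol in both fractions, *Polr1c* is higher in input, and *Wdr12* is lower in IP.

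Whether ethanol moved the members differently in IP and input was tested directly, as the interaction of fraction and treatment over the 18 libraries. edgeR called 0 of the 53 members and 0% of all tested genes. At an unadjusted p under 0.05 there were 2 members and 1459 genes in all. These members were *Noc4l* (0.16 ± 0.0706, adjusted p = 0.818) and *Wdr12* (-0.17 ± 0.0519, adjusted p = 0.675). DESeq2 called 0 members and 4 genes. When the dish was made a block, using the 12 libraries whose dish was sequenced in both fractions, 0.416% of all tested genes were called and again 0 members. A difference between fractions was therefore not shown for *Wdr12* or *Noc4l*, although each passed the test in 1 fraction alone.

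The input libraries share dishes with IP replicates 4 to 6. In IP replicates 1 to 3, which share no dish with an input library, 25 members and 1372 of the 24495 tested genes were lower with ethanol. In IP replicates 4 to 6 alone the counts were 23 members and 1890 genes.

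Markers of dividing cells moved with this result. All 18 of 18 proliferation markers were lower with ethanol in IP and in input, with median log2 fold changes of -0.31 and -0.49. Their summed level ran from 235 to 254 CPM (median 246) in IP control and from 194 to 208 CPM (median 200.4) in IP ethanol libraries, and *Pcna* was the most abundant. The sum was 243, 244 and 247 CPM in input control and 188, 195 and 181 CPM in input ethanol replicates 4 to 6. *Mki67* averaged 13.9 CPM in IP control and 10.5 CPM in IP ethanol libraries. The part of dividing cells in the change of the ribosome biogenesis genes was not tested.

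The vascular, mural and meningeal list was lower in sum, from a median of 1807 CPM in IP control to 1295 CPM in IP ethanol and from 1542 to 1151 CPM in input, which followed its most abundant gene *Acta2*. Of its 11 tested genes, 2 were lower and 1 higher in each fraction, and *Pecam1* and *Cdh5* were near 0. Of 12 microglial markers 3 were higher in each fraction. Astrocyte markers had 4 of 12 higher and 1 lower in IP, and 4 higher and 4 lower in input, and their sum had a median of 2502 CPM in IP control and 2566 CPM in IP ethanol libraries. The oligodendrocyte lineage list had 2 of 12 higher and 1 lower in IP, and 3 higher and 1 lower in input. Of 11 tested neuronal markers 1 was lower in IP, and 2 were higher and 1 lower in input. Of all tested genes 9.48% were lower and 11.9% higher in IP, and 7.78% and 7.21% in input. Of genes averaging 10 CPM or more, 17.9% were lower and 23.7% higher in IP. Several of these small counts are near such shares. The part of these cell types in the change of the ribosome biogenesis genes was not tested either.

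Other genes of ribosome assembly were taken from lists that hold none of the members. These lists, too, were chosen with earlier results of these data known, so they are not independent support. In IP 18 of 37 other small subunit factors and 21 of 39 other large subunit factors were lower and 0 were higher, with medians of -0.09 and -0.09. In input the counts were 10 and 18 lower, and again 0 higher. *Pno1*, a factor of late small subunit maturation, changed most of the small subunit list in IP, from a median of 38.2 to 32.3 CPM (log2 fold change -0.23 ± 0.0315, adjusted p = 4.76e-08). *Nol10* led that list in input with -0.24 ± 0.0521. *Rpf2*, which brings the 5S particle to the large subunit, had -0.20 ± 0.0442 (adjusted p = 0.000399) in IP, and *Rrp15* had -0.19 ± 0.0515 in input.

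The snoRNP assembly factors had 5 of 9 lower in IP and 2 of 9 in input, with 0 higher in either. *Ruvbl2*, for an ATPase of the R2TP complex, changed most in IP at -0.17 ± 0.0278 (adjusted p = 2.39e-06), and *Shq1*, a chaperone of dyskerin, in input at -0.22 ± 0.0719 (adjusted p = 0.0221). *Shq1* was called in 2 of 6 fits that each left out 1 input library. Of the exosome and RNase MRP genes 10 of 24 were lower in IP and 6 in input. *Pop7*, a protein of RNase P and MRP, fell from a median of 15.3 to 12.2 CPM in IP (log2 fold change -0.32 ± 0.0448, adjusted p = 7e-08), and *Dis3*, a nuclease of the exosome, had -0.29 ± 0.0608 (adjusted p = 3.99e-05) in input.

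Of the remaining RNA polymerase I genes, 6 of 15 were lower in IP and 1 higher, and in input 1 was lower and 1 higher. *Taf1d*, for a subunit of the promoter selectivity factor, rose in IP from a median of 6.62 to 7.99 CPM (log2 fold change 0.25 ± 0.0555, adjusted p = 0.000413). *Polr1e*, for an RNA polymerase I subunit, had -0.16 ± 0.0381 in IP and -0.19 ± 0.0564 (adjusted p = 0.00985) in input, a call lost without input control replicate 5 or input ethanol replicate 6.

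MYC acts in a network of partners and antagonists, of which 4 of 14 were higher and 1 lower in IP, and 1 higher and 2 lower in input. *Mxi1*, for a MAX-binding repressor that opposes MYC, ran from 38.4 to 40.6 CPM (median 39.4) in IP control and from 42.2 to 47.4 CPM (median 44.3) in IP ethanol libraries. In input it had 57.0, 53.3 and 51.7 CPM in control and 63.3, 64.8 and 60.0 CPM in ethanol replicates 4 to 6. Its ethanol libraries were above its control libraries in both fractions, opposite to *Myc*, with log2 fold changes of 0.18 ± 0.0305 (adjusted p = 3.71e-06) in IP and 0.21 ± 0.0312 (adjusted p = 1.08e-09) in input. *Mxd3*, a relative found in dividing cells, fell from a median of 1.52 to 1.04 CPM in IP (-0.54 ± 0.118, adjusted p = 0.000285) and by 0.79 on the log2 scale in input. *Max*, the common partner, had -0.02 in IP and -0.00376 in input and was not called.

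Of 30 other Myc target genes, 19 were lower and 2 higher in IP, and 18 lower and 3 higher in input, with medians of -0.11 and -0.10. *Mcm4*, for a subunit of the replicative helicase, had the largest called change in input, where it was at 27.3, 27.0 and 26.3 CPM in control and 20.8, 22.2 and 21.4 CPM in ethanol replicates 4 to 6 (-0.33 ± 0.0451, adjusted p = 2.37e-11). *Nme2*, for a nucleoside diphosphate kinase, had the largest called change in IP, but at a mean under 1 CPM (-0.37 ± 0.138, adjusted p = 0.0417), and it was called in 4 of 12 fits that each left out 1 library. Of 19 p53 target genes 9 were higher and 1 lower in IP, and 10 higher and 1 lower in input. *Btg2*, an antiproliferative gene, rose from a median of 188 to 208 CPM in IP (0.18 ± 0.0244, adjusted p = 3.5e-08) and had 0.21 ± 0.0231 (adjusted p = 1.22e-17) in input. The proliferation markers and the Myc targets share *Pcna*.

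Genes for the proteins of the cytosolic ribosome itself were lower with ethanol in 55 of 79 cases in IP and 33 in input, and 0 were higher. Their medians were -0.10 and -0.05. *Rpl13a* had the largest called change in IP (-0.20 ± 0.0415, adjusted p = 0.000166). *Rpl23a* had the largest in input (-0.19 ± 0.0451, adjusted p = 0.00616), where the call was lost by DESeq2, with another filter and without input ethanol replicate 5. Many ribosomal protein genes have near-identical pseudogenes, and read pairs that map to several places were not counted, so their levels are uncertain.

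The next question was how these mRNAs were divided between tagged ribosomes and the cleared lysate. Of the 53 members 35 were higher in IP than in input and 5 lower, whereas 25.2% of all tested genes were called higher and 25.8% lower. The median log2 fold change was 0.16, against -0.03 over all tested genes. Of genes averaging 10 CPM or more, 49% were higher and 30.9% lower, and of the 50 members in that range 70% and 8% were. In 21 members every IP library was above every input library, and in 2 every IP library was below, which held for 3206 and 2926 of the 24495 tested genes. Fitting the dish as a block gave 35 and 5 members as well.

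*Ftsj3*, for a large subunit factor with a methyltransferase domain, showed the largest called difference. It ran from 90.6 to 93.3 CPM (median 92.3) in IP control, against 60.0, 59.2 and 59.3 CPM in input control replicates 4 to 6. In ethanol libraries it ran from 79.6 to 85.2 CPM in IP and had 53.4, 52.7 and 53.7 CPM in input. The fractions were far apart under both treatments, with a log2 fold change of 0.63 ± 0.0212 (adjusted p = 7.83e-39). *Polr1a* had 0.45 ± 0.0236 (adjusted p = 8e-28), *Rrp1* 0.45 ± 0.0201, *Ddx21* 0.34 ± 0.0216 and *Rrp12* 0.33 ± 0.0327.

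By role, 4 of 5 RNA polymerase I genes, 3 of 3 DEAD-box helicases, 12 of 17 small subunit factors and 10 of 14 large subunit factors were higher in IP. Of the nucleolar phosphoproteins and regulators 3 of 5 were higher and 1 lower, and of the box C/D proteins 2 of 3 were higher. Of the box H/ACA proteins 1 of 4 was higher and 2 were lower. *Myc* itself was not called, with 0.05 ± 0.0302 (adjusted p = 0.206), and neither was *Mycn*.

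The 5 members lower in IP were *Polr1c*, *Npm1*, *Nhp2*, *Nop10* and *Rrp1b*. *Polr1c* had a median of 36.7 CPM in IP control against 49.8, 48.3 and 47.5 CPM in input control (log2 fold change -0.46 ± 0.0246, adjusted p = 4.83e-27). *Npm1* had a median of 365 CPM in IP control against 457, 428 and 449 CPM in input control (-0.32 ± 0.0197, adjusted p = 1.23e-23). IP and input libraries did not overlap in *Polr1c* and *Npm1*, and they did in the other 3. *Nhp2* had -0.20 ± 0.0289 and *Nop10* -0.08 ± 0.028 (adjusted p = 0.00867), the latter not called without input ethanol replicate 5. With total counts in place of TMM, which moved the median of all tested genes from -0.03 to -0.08, 9 members and 7394 genes were lower, against 5 members and 6326 genes with TMM.

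**Figure D3:**
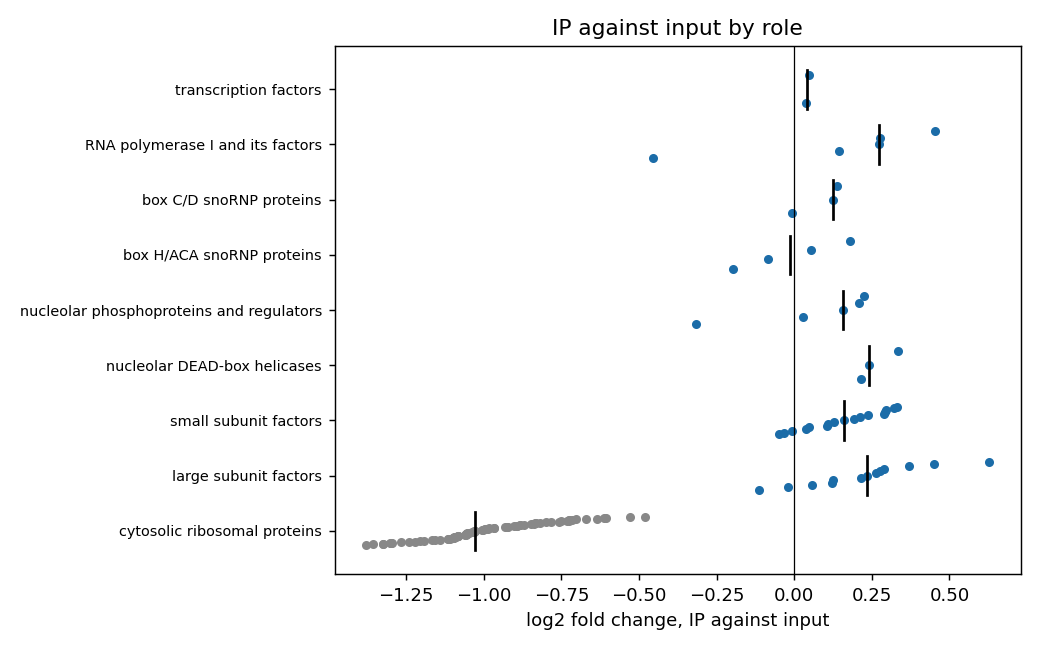
Log2 fold change of IP against input over both treatments (x axis) for the members by role (blue) and for 79 cytosolic ribosomal protein genes (grey), with the median of each group as a black line. *Wdr74* is left out. Most members lie right of 0 and all ribosomal protein genes lie left of it.

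All 79 tested cytosolic ribosomal protein genes were lower in IP, with a median of -1.03, and *Rps12* had the largest difference (-1.38 ± 0.0204, adjusted p = 1.03e-55). Their summed level was 38555, 38339 and 37334 CPM in input control replicates 4 to 6 and ran from 19341 to 20557 CPM in IP control libraries. Other small and large subunit factors were higher in IP in 26 of 37 and 25 of 39 cases and lower in 2 and 7, with medians of 0.12 and 0.18. The other RNA polymerase I genes had 5 of 15 higher and 8 lower, with a median of -0.08, the snoRNP assembly factors 3 of 9 higher and 3 lower, and the exosome and RNase MRP genes 11 of 24 higher and 4 lower. Myc partners and antagonists had 5 of 14 higher and 4 lower, other Myc targets 16 of 30 higher and 6 lower, and p53 targets 7 of 19 higher and 10 lower. *Dhx37*, for a helicase of the small subunit processome, had 0.51 ± 0.0265, while *Nsa2*, for a large subunit factor, was lower with -0.70 ± 0.0239. *Taf1d* was lower by far, with a log2 fold change of -0.96 ± 0.0411. *Mxi1* had -0.47 ± 0.0247, *Rpp25* -0.75 ± 0.137, *Ccnd2* 0.73 ± 0.0196, *Zmat3* 0.73 ± 0.0197 and *Ruvbl2* 0.31 ± 0.0245, each the largest called difference of its list.

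The fractions also differed in cell markers. Of 12 astrocyte markers 9 were higher in IP and 1 lower, and their sum rose from a median of 1638 CPM in input control to 2502 CPM in IP control, with *Glul* the most abundant. Of 12 microglial markers 11 were lower. Proliferation markers had 5 higher and 4 lower of 18, beside 25.2% higher and 25.8% lower among all tested genes. The oligodendrocyte lineage list had 5 higher and 4 lower of 12, the neuronal list 5 higher and 2 lower of 11, and the vascular, mural and meningeal list 5 higher and 5 lower of 11. In the same order, the median sums of these lists rose from 275, 172 and 1542 CPM in input control to 409, 226 and 1807 CPM in IP control. The transgene tags ribosomes under an astrocyte promoter, so that cell type and ribosome binding cannot be told apart in this comparison.

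The last description concerns promoters, since MYC binds E-boxes. RefSeq windows of 300 bases (250 before the transcription start and 50 after it, GRCm38.p6) were given for 48 of the 53 members. The canonical E-box CACGTG, which reads the same on both strands, was in a window of 10 members, 20.8% of those matched, against 8.09% of the 27025 genes with a window. The variant CACGCG or its reverse complement CGCGTG was in 35.4% of the members and 10.5% of all genes, and either form was in 52.1% and 17.2%. CACGTG was in 6 of the 26 matched members lower in IP (23.1%) and in 4 of the 22 that were not (18.2%). The sets were not matched for base composition. A match is a description, not a site or a cause.

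The windows of 4 of the 6 members that fell with ethanol in IP and hold CACGTG are shown, 5′ to 3′ on the strand of the gene, with the E-box in capitals. *Imp4*, for an RNA-binding factor of the small subunit processome, is at chr1:34439579-34439878 (plus strand), with the E-box starting 121 bases before the transcription start. *Nop2*, for a large subunit rRNA methyltransferase, is at chr6:125131633-125131932 (plus strand), with the E-box 60 bases before the start. *Utp18*, for a small subunit factor, is at chr11:93885717-93886016 (minus strand), with the E-box 20 bases before the start. *Ltv1* is at chr10:13193088-13193387 (minus strand), where the E-box begins at base 29 of the transcribed part. The log2 fold changes of these genes in IP were -0.14, -0.13, -0.10 and -0.26. *Mybbp1a* and *Tsr1*, not shown, hold CACGTG too. In fits that each left out 1 IP library, their log2 fold changes ran from -0.09 to -0.06 and from -0.14 to -0.10. *Mybbp1a* was called in 8 of these 12 fits.
Imp4: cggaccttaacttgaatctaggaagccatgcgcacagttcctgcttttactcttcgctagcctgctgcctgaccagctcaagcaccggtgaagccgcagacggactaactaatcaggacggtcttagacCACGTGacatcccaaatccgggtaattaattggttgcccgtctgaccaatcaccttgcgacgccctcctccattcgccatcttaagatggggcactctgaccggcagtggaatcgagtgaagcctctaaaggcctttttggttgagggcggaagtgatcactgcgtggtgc
Nop2: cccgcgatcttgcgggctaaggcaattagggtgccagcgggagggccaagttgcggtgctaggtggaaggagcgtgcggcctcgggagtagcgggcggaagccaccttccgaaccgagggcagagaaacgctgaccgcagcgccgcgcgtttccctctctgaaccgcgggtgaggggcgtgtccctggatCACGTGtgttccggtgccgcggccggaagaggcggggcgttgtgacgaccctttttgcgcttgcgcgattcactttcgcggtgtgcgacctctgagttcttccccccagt
Utp18: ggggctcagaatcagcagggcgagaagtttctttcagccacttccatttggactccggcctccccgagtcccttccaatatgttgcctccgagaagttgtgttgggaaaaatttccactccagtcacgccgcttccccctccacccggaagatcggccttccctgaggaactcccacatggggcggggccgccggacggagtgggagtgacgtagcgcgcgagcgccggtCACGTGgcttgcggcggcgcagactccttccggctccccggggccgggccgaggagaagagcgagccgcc
Ltv1: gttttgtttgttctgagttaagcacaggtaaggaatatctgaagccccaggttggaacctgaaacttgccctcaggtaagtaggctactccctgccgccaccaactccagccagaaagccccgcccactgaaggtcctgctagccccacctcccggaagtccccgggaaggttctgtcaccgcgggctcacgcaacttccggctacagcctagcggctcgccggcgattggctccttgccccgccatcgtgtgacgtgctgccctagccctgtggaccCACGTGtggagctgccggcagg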

How the data were processed

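RNA of 18 libraries was sequenced as read pairs: 12 of the IP fraction and 6 of input. According to the submitters' processing notes, reads were trimmed with Trimmomatic, aligned to GRCm38 (mm10) with STAR and handled with SAMtools. The counts were made by the authors and used as deposited: read pairs per gene from STAR, which leaves out pairs that map to several places or to more than 1 gene, unstranded, with stranded counts used as an alternative. Total counts per library ran from 74239854 to 132810705. Between replicates the chi-square per degree of freedom was between 3.87 and 17.6, so that the spread between dishes exceeded counting noise.

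A gene was tested if its counts over all libraries came to 10 or more. Libraries were scaled with TMM, and ethanol against control in each fraction, IP against input over both treatments, and the interaction of the 2 were tested with edgeR 4.0.16 (quasi-likelihood F test, robust) in R 4.3.3. P-values were adjusted after Benjamini and Hochberg with a threshold of 0.05. SE was taken as the size of the log2 fold change over the square root of F. It rests on 6 against 6 libraries in IP and 3 against 3 in input. Levels are CPM, and levels of different genes were compared per kb of exon length, with all annotated exons of a gene merged (GENCODE M21, GRCm38). The pipeline was also tested on simulated data.

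Control and ethanol dishes share a replicate number. The correlation of same-number libraries lay between -0.142 and 0.374 in IP and between 0.0334 and 0.0718 in input, so that the number was not used as a pair. Alternatives were DESeq2 1.42.0, RLE scaling, total counts, filterByExpr, no filter, stranded counts, a required fold of 1.2, removal of GC and length trends, a replicate or dish block, IP replicates 1 to 3 or 4 to 6 alone, and leaving out each library.

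The members and the lists of pathway genes and cell markers were written from general knowledge, and were chosen with earlier results of these data known. Genes were named for the largest called change of each role or list and for the highest and lowest level per kb. *Myc*, *Mycn* and some, not all, of the genes whose calls differed between fractions or settings were named as well. *Riok2* was not analysed here, and *Taf9*, *Exosc6*, *Neurod6* and *Cldn5* were under the filter. The summed level of the microglial markers is not reported here. Promoter windows are from RefSeq and were matched by gene name, which gave no match for *Fbl*, *Myc*, *Npm1*, *Rrp12* and *Bop1*.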

Additional observations from a re-analysis of the deposited data

Results flagged for a closer look

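In each member's IP groups, the library farthest from the others was compared with the range of its group of 6 by Dixon's criterion, which chance alone meets in about 1 in 20 groups. It was met in 6 of 106 groups. The lowest libraries set apart were IP control replicate 6 for *Dkc1* (21.7847 CPM), IP control replicate 2 for *Utp18* (39.2078 CPM), and IP ethanol replicate 2 for *Mybbp1a* (142.547 CPM) and *Nat10* (31.9895 CPM). The highest were IP ethanol replicate 1 for *Ltv1* (31.0298 CPM) and IP ethanol replicate 3 for *Nop2* (50.4017 CPM). The cause was not tested.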

How the results depend on the processing

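With a required fold of 1.2, members lower with ethanol went from 30 to 0 in IP and from 27 to 0 in input, the 1 member higher in input went to 0, and members higher in IP than in input went from 35 to 7 and lower from 5 to 2. With trends of GC content and length removed, 1 member (*Polr1c*) was higher with ethanol in IP in place of 0, and 36 were lower in IP and 31 in input. With total counts 9 members were lower in IP than in input in place of 5 and 33 higher in place of 35, while genes called lower went from 6326 to 7394 and higher from 6172 to 5104. Leaving out 1 library at a time, members lower with ethanol numbered 29 to 33 in IP and 23 to 27 in input, and members higher in IP 0 to 1, the 1 being *Polr1c* without IP ethanol replicate 5. Members higher in IP than in input numbered 35 to 36 and lower 4 to 5. With the replicate number as a block 30 members were lower in each fraction. DESeq2 called 36 lower in IP and 25 in input. No member's direction was reversed past the threshold in any of these settings. The cause of these changes was not tested. Ethanol was compared between dishes at 1 dose and 1 time, and tagged ribosomes and input differ in cell type as well as in ribosome binding.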
